A study of Sus scrofa with 21 samples.

Results

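The antisense probes of a custom Agilent pig array were compared between DD and LW pigs in whole blood. They are the probes, controls left out, whose name in the scanner files starts with "antisens", and there were 358 of them among 60305 probes. Each carries the Vega identifier of a pig transcript (OTTSUST) and has a sense probe with the same identifier on the array. DD pigs are minipigs of 1 inbred herd, bred to be homozygous at the swine leukocyte antigen (SLA) complex, the pig's major histocompatibility complex, and LW pigs are Large White pigs of a commercial breed. The blood came from 10 DD pigs (5 litters) and from 11 LW pigs (6 litters), all 60 days old and fed the same standard diet without restriction, with 1 array per pig on 3 chips that each held both breeds. In whole blood, fewer cells of a type and less RNA per cell cannot be told apart.

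Most genes are read from 1 DNA strand, but RNA can also be made from the opposite strand of the same segment, as a regulatory antisense RNA or as the end of a neighbouring gene that runs the other way. RNA polymerase II transcripts usually end shortly after the polyadenylation signal, AATAAA in DNA letters, and neighbouring genes that face each other can overlap there. The labelling kit used here primes copying at the poly(A) tail and makes labelled RNA complementary to the message, which binds probes written in the direction of the message. A probe written in the other direction therefore answers to RNA of the opposite strand, and also to any labelled RNA made in the wrong direction or from a similar sequence, which the array does not separate. The SLA complex is one of the most gene-dense segments of the pig genome, and it holds the class I and class II molecules that present peptides to T cells, complement genes and many genes of general cell function.

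Every antisense probe had 60 bases and was the exact reverse complement of its sense probe (358 of 358). The probe whose level differed most firmly between the breeds is shown with its sense partner, to show how a pair is built, each from 5′ to 3′.
antisens_OTTSUST00000001125: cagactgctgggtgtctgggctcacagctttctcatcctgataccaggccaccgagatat
OTTSUST00000001125: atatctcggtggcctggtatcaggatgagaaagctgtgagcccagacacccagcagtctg
Another probe of the array has the same 60 bases as this sense probe and is named MIC-2 in the scanner files, a gene related to the chains of major histocompatibility complex class I.

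The reverse complement of the polyadenylation signal was more frequent in the antisense probes than in other probes, and the signal itself was rarer. The letters TTTATT, the reverse complement of AATAAA, stood in 58 of the 283 distinct antisense sequences (20.5%), against 4.17% of 57825 distinct sequences of the other probes on the array. AATAAA itself stood in 9 of the 283 (3.18%) and in 10.2% of the other sequences. Each antisense probe is the reverse complement of its sense probe. By construction, the 58 sequences with TTTATT are therefore those whose sense sequence holds AATAAA. The search read the probe as written, and 1 probe can hold both. The antisense probes shown next carry the motif (in capitals) and are those of AIF1, BRD2, SLC39A7 and HSD17B8 and of transcripts OTTSUST00000000695, OTTSUST00000000899 and OTTSUST00000000901, each as 30 bases of the 60.
antisens_OTTSUST00000000529 (AIF1, bases 5 to 34): gacggaagatgaTTTATTtaaattagattg
antisens_OTTSUST00000000517 (BRD2, bases 1 to 30): TTTATTtacaagttagaatcaacagacaaa
antisens_OTTSUST00000000704 (SLC39A7, bases 1 to 30): atccgaggacTTTATTtccgttcaccaccc
antisens_OTTSUST00000000684 (HSD17B8, bases 4 to 33): gaggatttggaaTTTATTagggtcacaagc
antisens_OTTSUST00000000695 (bases 1 to 30): tcctTTTATTgctcccgtacgaaccccttc
antisens_OTTSUST00000000899 (bases 1 to 30): agacgataagtTTTATTttctcccaccata
antisens_OTTSUST00000000901 (bases 6 to 35): actgagatctcaTTTATTgccacagatgca
A match of these letters is a description of the probe and says nothing of whether a transcript ends there. The mean signal of the distinct sequences had a median of 4.43 with the motif and 4.53 without it, on the log2 scale.

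Probes without the motif were also among those with the largest breed differences or the highest values. They are shown whole.
antisens_OTTSUST00000001009 (FLOT1): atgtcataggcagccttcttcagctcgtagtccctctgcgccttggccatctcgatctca
antisens_OTTSUST00000000582: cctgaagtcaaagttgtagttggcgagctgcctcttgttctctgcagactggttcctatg
antisens_OTTSUST00000000496: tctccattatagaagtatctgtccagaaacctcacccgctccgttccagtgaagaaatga
antisens_OTTSUST00000000673: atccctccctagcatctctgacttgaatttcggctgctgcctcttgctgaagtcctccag
antisens_OTTSUST00000000459: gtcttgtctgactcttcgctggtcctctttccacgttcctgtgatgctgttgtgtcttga

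The named probes come from 1 region of the genome. Names were found for 149 of the 358 probes, which stand for 75 genes, through other probes of the array that share at least 25 bases in a row with the sense probe. Of these genes, 74 have 1 position in the RefSeq table of Sscrofa11.1, and all 74 lie on chromosome 7 between positions 22527596 and 25255526, the segment of the SLA complex. DD pigs were bred to be homozygous there. For these probes, a breed difference in RNA and one in the match of the probe to each breed's sequence cannot be told apart. The other 209 probes were named by their transcript only, and their match to each breed's sequence was not tested. Several probes repeat 1 sequence: 124 of them fell in 49 groups of identical sequence, up to 7 probes in a group, so that the 358 probes hold 283 distinct sequences. Probes of 1 sequence share their target and are not independent. Counts below are of probes or pairs unless distinct sequences are named.

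Repeated sequences gave the error between spots of an array. In the 7 groups with a mean above 6 on the log2 scale, the SD between identical spots had a median of 0.125, and the log2 fold change (FC) between breeds differed by a median of 0.06 and at most 0.08 within a group. In the 36 groups with a mean of at most 5, the SD was 0.445, and the log2 FC differed by a median of 0.22 and at most 0.72. Among dim antisense probes, spots of 1 sequence thus differed by as much as many of the breed differences described below.

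Signal on the antisense probes was common but less frequent than on the sense probes. A spot was counted as detected when the feature extraction software flagged it as well above background. On an array, between 28.2% and 53.1% of the antisense probes were detected, against 59.2% to 79.1% of their sense partners and 44.7% to 63.8% of all probes. On all 21 arrays, 76 antisense probes (21.2%) and 195 sense probes (54.5%) were detected. On no array, 86 antisense probes (24.0%) and 35 sense probes (9.78%) were detected, and over all probes of the array these shares were 39.2% on every array and 20.7% on none. No spot of an antisense probe was saturated (0).

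In some pairs, 1 direction was detected on all arrays and the other on none. Both probes were detected on all arrays in 43 pairs, and neither on any array in 14. The sense probe was on all arrays and the antisense probe on none in 37 pairs. The opposite was seen in 3 pairs, antisens_OTTSUST00000000582, antisens_OTTSUST00000000608 and antisens_OTTSUST00000001115, whose sense probes were not well above background on any array. A further 15 antisense probes were on all arrays with a sense partner on at most 5 arrays, among them those of C4A (a complement component), MOG (a myelin protein), NRM (a nuclear envelope protein) and ATP6V1G2 (a proton pump subunit). Brightness depends on the probe sequence, so the level of a probe does not rank RNA abundance, and levels of different probes are given as probe signal only. No antisense probe was detected on all arrays of 1 breed and none of the other (0). In LW pigs alone, 52 probes were detected, on at most 5 arrays each, and in DD pigs alone 21, on 1 array each. The share of all probes of the array detected was also lower on DD arrays (median 51.9%) than on LW arrays (median 59.7%). How many of all probes were detected in 1 breed alone was not counted.

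The DD arrays were dimmer than the LW arrays. Array brightness, taken as the 75th percentile of a DD or LW array's processed signal in log2, averaged 7.53 ± 0.54 (SD, n = 10) for DD and 8.22 ± 0.38 (SD, n = 11) for LW arrays. DD minus LW, brightness stood at -0.07, -0.76 and -1.27 on chips 1, 2 and 3. The share of antisense probes detected had a median of 30.9% on DD arrays and 40.8% on LW arrays. All values below come from the deposited quantile-normalized matrix, in which the arrays share 1 distribution, and the breed fit used limma with the chip as a fixed effect and the litter as a block.

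More antisense probes were higher in DD pigs than lower. At an adjusted p of 0.05, 36 of the 358 were called (10.1%), where 11.3% of all 60305 probes were called. Of these, 34 (9.50%) were higher in DD pigs and 2 (0.559%) were lower, where the shares over all probes were 5.66% and 5.62%. The 34 probes hold 29 distinct sequences. The log2 FC of the 34 ranged from 0.35 to 1.03 with a median of 0.67, and the limma adjusted p ranged from 0.000627 to 0.0498. The median log2 FC over the 358 antisense probes was 0.08, over the sense partners -0.0006 and over all probes -0.03, and 226 of the 358 were above 0.

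The excess of higher calls lay in antisense probes with means above 5. Of the 26 with a mean of at least 9 on the log2 scale, 12 were called higher and 1 lower, and 24 had a log2 FC above 0, with a median of 0.59. The 12 include the 4 AIF1 probes, which share 1 sequence. Among the 10784 probes of the array in the same range of means, the share called higher was 10.8% and the share called lower 11.4%, and the median was -0.12. The 118 sense partners in that range held 9 calls higher and 4 lower, with a median of -0.03. Of the 28 antisense probes with means between 7 and 9, 10 were called higher and 0 lower by limma, with a median of 0.34, against 10.3% and 8.48% of all probes in that range. Of the 70 with means between 5 and 7, 11 were called higher (15.7%) and 1 lower, with a median of 0.12, against 7.44% and 6.97% of all probes in that range. Of the 234 with a mean below 5, 1 was called higher and 0 lower, with a median of 0.03. Over the 358 antisense probes, 87 (24.3%) had an unadjusted p under 0.05, against 28.6% of all probes.

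These calls changed when array brightness was a covariate or chip 3 was left out. Brightness itself differed between the breeds, so an effect of brightness and one of breed cannot be told apart here. Over the 34 probes called higher, the DD minus LW difference had medians of 0.14, 0.70 and 1.21 on chips 1, 2 and 3, in the order of the brightness differences, and it was above 0 for 29, 34 and 34 of them. These probes were chosen by the call, and over all 358 the medians were 0.04, 0.11 and 0.12. With brightness as a covariate, 0 antisense probes were called higher by limma and 1 lower, and 1.39% of all probes were called. An unadjusted p under 0.05 was then found for 26 of the 358 (7.26%) and for 10.1% of all probes. The 34 probes then had a log2 FC from -0.03 to 0.49 with a median of 0.10, and 30 of them stayed above 0. Without chip 3, 0 were called in either direction, and 0.761% of all probes were called, with an unadjusted p under 0.05 for 30 of the 358 (8.38%) and for 10.1% of all probes.

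The count of higher calls also turned on single animals and on the block. The number called higher was 15 without the litter block, whose estimated correlation was -0.09. It moved by over 1.5 times when DD pig 1 (12 called higher), 6 (56), 10 (12), 16 (19), 19 (20), 21 (10) or 23 (13) was left out, and likewise LW pig 5 (11), 7 (52), 9 (21), 12 (10), 14 (15), 18 (10), 22 (12) or 24 (12). The number called lower was 2 to 4 over these fits and moved by over 1.5 times without LW pig 7 (4).

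The smallest adjusted p among the 358 was that of the antisense probe of the MIC-2 sequence, which was lower in DD pigs. In antisens_OTTSUST00000001125 the log2 values of DD pigs ran from 4.09 to 5.57 with a median of 4.78, and those of LW pigs from 5.03 to 6.67 with a median of 5.83. The breeds overlapped, with 8 of 10 DD pigs below every LW pig. The probe was detected on 3 of 10 DD arrays and 11 of 11 LW arrays, so much of the DD signal lay near background. Its log2 FC was -1.004 (adjusted p = 0.000442 by limma, SE 0.16), with -0.55, -1.19 and -1.26 on the 3 chips.

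The antisense probe also passed the test in the fit with brightness, and its sense probe did not. The log2 FC was -0.90 (adjusted p = 0.0307) with brightness as a covariate, -0.91 (adjusted p = 0.0591) without chip 3, -0.46 with a normexp offset of 50 and -1.57 with scaling to the 75th percentile. Leaving out 1 pig at a time gave -1.11 to -0.94, with adjusted p from 0.000106 to 0.00136. The sense probe OTTSUST00000001125 ran from 4.26 to 6.79 in DD pigs and from 5.74 to 7.85 in LW pigs, with medians of 5.95 and 6.99. Its log2 FC was -0.94 (adjusted p = 0.0114 by limma, SE 0.22) and -0.80 (adjusted p = 0.278) with brightness as a covariate, and that of the other probe with the sense sequence, the one named MIC-2, was -0.78 (SE 0.17, adjusted p = 0.00776). The antisense minus sense difference between breeds was -0.03 (exact permutation of litter means, 2-sided, p = 0.872). For this pair too, a breed difference in RNA and one in the match of the probes to each breed's sequence cannot be told apart.

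The other probe called lower, antisens_OTTSUST00000001104, also followed its sense partner. Its log2 values ran from 9.00 to 9.44 in DD pigs, with a median of 9.32, and from 9.20 to 10.28 in LW pigs, with a median of 9.77. Its log2 FC was -0.49 (adjusted p = 0.0216 by limma, SE 0.13), and 2 of 10 DD pigs were below every LW pig. The sense probe had a log2 FC of -0.77 (SE 0.21, adjusted p = 0.0244). The antisense log2 FC was -0.52 (adjusted p = 0.164) with brightness as a covariate.

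Among the probes called higher, the antisense probes of AIF1 had the 4 largest differences. AIF1 is a calcium-binding protein of macrophages (chr7:23711752-23731191). Its 4 antisense probes share 1 sequence, so they are 4 readings of 1 target. In antisens_OTTSUST00000001462 the DD pigs ran from 9.14 to 12.43 with a median of 10.36, and the LW pigs from 7.89 to 10.36 with a median of 9.60. In antisens_OTTSUST00000000529 the DD pigs ran from 9.95 to 12.27 with a median of 11.21, and the LW pigs from 8.50 to 11.82 with a median of 10.09. The breeds overlapped on every one of the 4, and 5 of 10 DD pigs in the first and 1 of 10 in the second lay above every LW pig. The log2 FC of the 4 ran from 0.96 to 1.03, with adjusted p from 0.0303 to 0.0413 by limma and SE from 0.29 to 0.30. On chip 1 the difference was 0.02 to 0.25, and on chip 3 it was 1.69 to 1.82. With brightness as a covariate the log2 FC fell to between -0.0045 and 0.11.

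The sense probes of AIF1 were also higher in DD pigs. Their log2 FC ran from 0.46 to 0.49, with limma adjusted p from 0.0420 to 0.0484, and another AIF1 probe that overlaps them by 54 bases had a log2 FC of 0.42 (SE 0.16, adjusted p = 0.0769). For AIF1, antisense minus sense gave 0.43 to 0.48, with exact permutation p from 0.227 to 0.310. With brightness as a covariate the sense log2 FC was 0.52 to 0.60, none past the limma test (adjusted p from 0.164 to 0.260). Antisense minus sense then turned to between -0.58 and -0.48, with permutation p from 0.110 to 0.171.

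FLOT1, a scaffold protein of membrane rafts (chr7:23253157-23265165), passed the test in 1 antisense probe and not in its sense partner. Other FLOT1 antisense probes were not called. In 2 repeated sequences their log2 FC was -0.03 and 0.01 (mean log2 value 4.34) and 0.30 and 0.38 (mean 5.01). In antisens_OTTSUST00000001009 the DD pigs ran from 8.45 to 11.69 with a median of 9.94, and the LW pigs from 7.77 to 10.33 with a median of 9.31. The log2 FC was 0.87 (adjusted p = 0.0386 by limma, SE 0.26), 4 of 10 DD pigs lay above every LW pig, and the log2 FC was -0.02 with brightness as a covariate. The sense probe had a log2 FC of -0.33 (adjusted p = 0.266), and 2 other FLOT1 probes with the same 60 bases as the sense probe had -0.19 and -0.11 (adjusted p = 0.613 and 0.732). Antisense minus sense came to 1.17 (exact permutation p = 0.0325), but to 0.04 (permutation p = 0.924) with brightness as a term, and its exact p reached 0.110 over the other alternatives.

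The remaining 3 of the 8 highest are transcripts without a gene name. In antisens_OTTSUST00000000899 the DD pigs ran from 4.50 to 9.51 with a median of 6.35, and the LW pigs from 4.23 to 7.66 with a median of 5.58. Its log2 FC was 0.94 (adjusted p = 0.0313 by limma, SE 0.26), and it was detected on 8 of 10 DD and 9 of 11 LW arrays. In antisens_OTTSUST00000000582 the DD pigs ran from 11.53 to 13.75 with a median of 13.21, and the LW pigs from 10.96 to 13.68 with a median of 12.10. The breeds overlapped in both probes. The log2 FC of antisens_OTTSUST00000000582 was 0.89 (SE 0.28, adjusted p = 0.0467), and its sense probe was not well above background on any array. In antisens_OTTSUST00000000496 the DD pigs ran from 7.41 to 10.99 with a median of 8.68, and the LW pigs from 6.83 to 9.33 with a median of 8.45. Its log2 FC was 0.85 (SE 0.24, adjusted p = 0.0339), with 3 of 10 DD pigs above every LW pig. The sense probes of antisens_OTTSUST00000000899 and antisens_OTTSUST00000000496 were detected on 0 of 10 DD arrays and 1 of 11 LW arrays each, so no sense difference is given. With brightness as a covariate the 3 had log2 FC of 0.32, 0.03 and 0.01.

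The 6 antisense probes with the highest means were detected on all 21 arrays. The brightest, antisens_OTTSUST00000000673, ran from 17.25 to 18.09 in DD pigs and from 16.73 to 17.77 in LW pigs, with medians of 17.62 and 17.40. Its log2 FC of 0.29 did not pass the test (adjusted p = 0.0991 by limma, SE 0.11), nor did that of 0.31 in antisens_OTTSUST00000000695 (SE 0.11, adjusted p = 0.0735), which ran from 14.08 to 14.78 in DD and from 13.67 to 14.65 in LW pigs.

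SLC39A7, a zinc transporter of the endoplasmic reticulum (chr7:25242862-25247407), and HSD17B8, a steroid dehydrogenase (chr7:25247577-25249786), are neighbours, and the antisense probes of both were among the brightest. In antisens_OTTSUST00000000704 (SLC39A7) the DD pigs ran from 15.32 to 16.64 with a median of 16.02, and the LW pigs from 14.65 to 16.29 with a median of 15.37. In antisens_OTTSUST00000000684 (HSD17B8) the DD pigs ran from 13.67 to 15.95 with a median of 14.76, and the LW pigs from 12.86 to 15.20 with a median of 14.33. Both overlapped between breeds, with 3 of 10 DD pigs above every LW pig in each. The log2 FC was 0.54 (adjusted p = 0.0384 by limma, SE 0.16) for SLC39A7 and 0.68 (SE 0.22, adjusted p = 0.0484) for HSD17B8, and 0.08 and -0.02 with brightness as a covariate. Their sense probes had log2 FC of -0.20 (adjusted p = 0.297) and 0.20 (adjusted p = 0.290). Antisense minus sense was 0.69 (exact permutation p = 0.026) for SLC39A7 and 0.43 (exact permutation p = 0.180) for HSD17B8, and with brightness as a term 0.05 (permutation p = 0.781) and -0.33 (permutation p = 0.255). The exact p of SLC39A7 reached 0.238 over the other alternatives. A second transcript of HSD17B8 gave the reverse picture, with antisens_OTTSUST00000000685 at a mean of 3.92 and a log2 FC of 0.03, while its sense probe was higher in DD pigs by 0.88 (SE 0.25, adjusted p = 0.0335).

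The fifth brightest probe, antisens_OTTSUST00000000459, did not differ by the test while its sense partner did. The antisense probe ran from 13.47 to 14.76 in DD pigs and from 12.93 to 14.30 in LW pigs, with medians of 13.79 and 13.87, and its log2 FC was 0.07 (adjusted p = 0.815 by limma, SE 0.15). The sense probe ran from 5.93 to 7.03 in DD pigs and from 6.66 to 8.12 in LW pigs, with a log2 FC of -0.96 (SE 0.18, adjusted p = 0.00260). The antisense minus sense difference of 1.05 had an exact permutation p of 0.00216, the smallest that the 462 divisions of the litters allow, and this was the only pair at that p (1 of 358). It was 1.17 (permutation p = 0.00216) with brightness as a term.

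Over all 358 pairs, the antisense minus sense difference between breeds had an exact p under 0.05, without adjustment, in 62 (17.3%), with the antisense probe relatively higher in DD pigs in 40 and lower in 22. The 62 pairs hold 56 distinct sequences. Of the 43 pairs with both probes detected on all arrays (35 distinct sequences), 10 had such a p, all with the antisense probe relatively higher. Without chip 3 there were 33 of 358 such pairs, and 38 without LW pig 18. A fit with brightness as a term, chosen after these data were seen and refitted for each division of the litters, gave 22 (6.15%), 12 with the antisense probe relatively higher and 10 lower. Of these 22 pairs, 2 had both probes detected on all arrays. The sense partners themselves were called in 36 pairs (10.1%), 22 higher and 14 lower in DD pigs. In 7 pairs, which hold 4 distinct sequences, both probes were called, and all 7 had the same direction. Over the 35 distinct pairs with both probes detected on all arrays, the log2 FC of the 2 directions had a Pearson correlation of 0.59, and 22 had the same sign. Over all 283 distinct pairs the Pearson correlation was 0.17. These pairs share arrays, brightness and base composition, and no test is given.

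Some differences outside the naming rule were chosen after their values were seen. BRD2 (chr7:25096579-25162591) is a bromodomain protein that binds acetylated histones. Its antisense probe antisens_OTTSUST00000000517 ran from 8.64 to 9.71 in DD pigs and from 7.71 to 9.11 in LW pigs, with medians of 9.23 and 8.59, and 6 of 10 DD pigs lay above every LW pig. The log2 FC was 0.66 (adjusted p = 0.00367 by limma, SE 0.13), with 0.40, 0.81 and 0.77 on the 3 chips. With brightness as a covariate the log2 FC was 0.40 (adjusted p = 0.274), without chip 3 it was 0.62 (adjusted p = 0.196), and without chip 2 it was 0.58 (adjusted p = 0.0567). The sense probe had a log2 FC of -0.36 (adjusted p = 0.108), and another BRD2 probe of the same 60 bases likewise -0.36 (adjusted p = 0.0947). The antisense minus sense difference was 0.98 (exact permutation p = 0.00433). The second BRD2 antisense probe, of the same sequence, had a log2 FC of 0.59 (adjusted p = 0.0062) and a difference of 0.91 from its sense probe (exact permutation p = 0.00433). The difference of the first probe was 0.41 (permutation p = 0.0996) with brightness as a term, while the other alternatives gave 0.68 to 1.45 with an exact p of at most 0.0411.

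The antisense probe with the lowest adjusted p among those higher in DD pigs was antisens_OTTSUST00000000699. It ran from 6.01 to 8.05 in DD pigs and from 5.53 to 6.53 in LW pigs, with medians of 6.56 and 5.75, and 6 of 10 DD pigs lay above every LW pig. Its log2 FC was 0.79 (adjusted p = 0.000627 by limma, SE 0.13), 0.46 (adjusted p = 0.0581) with brightness as a covariate and 0.65 (adjusted p = 0.0615) without chip 3. The sense probe had a log2 FC of -0.29 (adjusted p = 0.409). The widest gap within a pair of the probes followed here was that of antisens_OTTSUST00000000469, at 0.83 (SE 0.19, adjusted p = 0.0107) on the antisense probe and -0.82 (SE 0.33, adjusted p = 0.107) on the sense probe, a difference of 1.61 (exact permutation p = 0.00649). Its sense probe was detected on 6 of 10 DD and 10 of 11 LW arrays, and the antisense log2 FC was 0.29 (adjusted p = 0.663) with brightness as a covariate. The pair differences of antisens_OTTSUST00000000699 and antisens_OTTSUST00000000469 were then 0.45 (permutation p = 0.201) and 1.16 (permutation p = 0.0173). CLIC1 is a chloride channel protein that RefSeq places at more than 1 position. In 2 of its 3 transcripts the signs on the 2 strands were opposite. The antisense probes of these 2, antisens_OTTSUST00000000644 and antisens_OTTSUST00000000646, share 1 sequence, so they are 2 readings of 1 target. Their sense sequence overlaps probes named CLIC1 and CNOT4. The 2 antisense probes had log2 FC of 0.50 and 0.49 that did not pass the limma test (adjusted p = 0.0592 and 0.0573). Their sense probes had -0.50 and -0.50 (adjusted p = 0.0449 and 0.0407). Another CLIC1 transcript had -0.34 on the antisense probe and -0.35 on the sense probe, neither past the test.

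By role, the named antisense probes called higher stood for 11 genes and 16 probes, and the other 18 probes called higher and both called lower have no RefSeq gene name here. The counts by role stand beside 5.66% called higher and 5.62% called lower among all 60305 probes, and no role was tested. The 10 antisense probes of 7 SLA genes, which encode the antigen-presenting molecules and their chaperones, included 1 call, SLA-DMB, a chain of the molecule that loads peptides on class II. In SLA-DMB (chr7:25119278-25125089) the antisense log2 FC was 0.43 (adjusted p = 0.0214 by limma, SE 0.11), the DD pigs ran from 5.75 to 6.78 and the LW pigs from 5.48 to 6.31, and the sense log2 FC was 0.19 (adjusted p = 0.493). The other SLA genes, SLA-5, SLA-8, SLA-DMA, SLA-DOB, SLA-DQB1 and SLA-DRA, had antisense log2 FC from -0.21 to 0.32, and no sense partner of the 10 passed the test (0). The probes of TAP1 and PSMB9, which supply peptides to class I, had 0.04 and 0.22, neither past the test. Of 5 probes of the complement genes C2, C4A and CFB, 1 was called higher, that of C4A at 0.67 (SE 0.19, adjusted p = 0.0343), whose sense probe was detected on 2 of the 21 arrays.

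In the 18 probes of 10 genes of immune cells and inflammation, the 4 AIF1 probes were the only calls, and the median log2 FC was -0.04. LTB, a cytokine of lymphoid tissue, had -0.08 and -0.13 in its 2 probes. Of the 32 probes of 16 genes of transcription and RNA, 4 were called higher, 2 of BRD2 and 2 of PBX2, a homeodomain partner protein. These 2 PBX2 probes had log2 FC of 0.74 (SE 0.18, adjusted p = 0.0146) and 0.45 (SE 0.12, adjusted p = 0.0292), and the third PBX2 antisense probe had 0.09 (adjusted p = 0.749). RING1, a Polycomb ubiquitin ligase, showed the sense direction alone past the test: its 2 sense probes were higher in DD pigs by 0.85 and 0.82 (adjusted p = 0.00749 and 0.00376), and its antisense probes had 0.03 and 0.19, detected on 2 and 0 of the 21 arrays. Of the 36 probes of 12 genes of transport and metabolism, 2 were called higher, those of SLC39A7 and HSD17B8. AGPAT1, which makes phosphatidic acid, had 3 antisense probes of 1 sequence detected on all arrays, with log2 FC from -0.08 to -0.02. The 46 probes of 25 further genes held 4 calls, all higher, those of CDSN, FLOT1, MOG and STK19.

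In a few places the opposite strand belongs to a known transcript. The antisense probe antisens_OTTSUST00000000901 shares 57, 55 and 34 bases with 3 probes written in the message direction, of which 2 are named PPP1R11, an inhibitor of protein phosphatase 1 (chr7:22634074-22636987). It also shares 52 bases each with the sense probes of transcripts OTTSUST00000000893 and OTTSUST00000000894. The antisense probe was detected on all 21 arrays, with a log2 FC of -0.15 (adjusted p = 0.256 by limma, SE 0.09), and the 5 probes of that strand had log2 FC from -0.17 to -0.12, none past the test. The sense probe of transcript OTTSUST00000000901 itself had -0.27 (adjusted p = 0.355).

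Transcripts OTTSUST00000000550 and OTTSUST00000000574 are exact opposites, so that the antisense probe of each has the sequence of the sense probe of the other. The probe that names transcript OTTSUST00000000550 as its sense was detected on 3 of 21 arrays and its twin, antisens_OTTSUST00000000574, on 2, all of LW pigs. The first ran from 3.53 to 4.19 in DD pigs and from 3.86 to 5.67 in LW pigs (adjusted p = 0.0273 by limma), and its twin from 3.34 to 5.12 and from 3.54 to 5.75 (adjusted p = 0.0550), with lower medians in DD pigs on both. On the other strand, the sense probe of transcript OTTSUST00000000574 was detected on 5 arrays and its twin antisens_OTTSUST00000000550 on 6, with log2 FC of 0.15 (adjusted p = 0.534) and -0.14 (adjusted p = 0.815). The sign thus differed between identical dim spots. DD pigs had no detected spot on the first of these strands, so no fold is given for it. With matches among the antisense probes themselves left out, 7 antisense probes shared at least 25 bases with another probe of the array written in their direction. The rest had none in that search. For antisens_OTTSUST00000000474, antisens_OTTSUST00000000690 and antisens_OTTSUST00000000693, that other probe is named for the gene of the sense probe itself (SLC44A4 or NELFE). These matches name no separate transcript of the opposite strand.

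The number of C bases went with the level of the antisense probes. Over the 283 distinct sequences, the rank correlation of the mean log2 value with the number of C bases was 0.44 for antisense probes and 0.02 for the sense probes, counted in each probe's own sequence. The rank correlation was -0.23 and -0.21 with the number of G bases, -0.22 and -0.07 with A, and 0.04 and 0.24 with T. The 28 brightest distinct antisense sequences had a median of 18.5 C bases, against 13 in the other 255. The sequences shown above for SLC39A7, transcript OTTSUST00000000695 and transcript OTTSUST00000000673 have 21, 22 and 21 C bases of 60. The points share 21 arrays, and no test is given.

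The samples bore the marks of whole blood. Of 22 genes with a probe among the marker lists for red cells, T cells, B cells, monocytes, granulocytes and platelets, 21 were detected on all 21 arrays.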

How the data were processed

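RNA from the blood of 10 DD and 11 LW pigs was measured on a one-colour Agilent array. The deposited intensity values come from the scanner output of Agilent Feature Extraction 10.7.3.1 (the submitters' processing notes), with the spot signal, local background and detection flags, not normalized between arrays. The deposited log2 matrix was background corrected and quantile normalized by the authors, who left out outlier arrays. The methods note a technical bias of the third chip. Array number limits the precision.

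Antisense probes were taken by name and paired with the sense probe of the same identifier. One repeated name was averaged (60306 rows, 60305 probes). Breed differences (DD minus LW) were fitted over all probes in limma 3.58.1 (R 4.3.3) with chip as a fixed effect, litter as a block (duplicateCorrelation, consensus -0.0878), eBayes and Benjamini-Hochberg adjustment, without a filter. The consensus was below 0, which narrows errors. Pair differences were compared by exact 2-sided permutation of litter means of chip-corrected values over 462 divisions. As an alternative chosen after seeing the data, the pair difference was fitted per pig with chip and brightness and refitted for each division (permutation of the breed term's t). Litters and chips came from the study's animal table. P-values measure the spread between these pigs. Named probes are the 8 highest and 8 lowest log2 FC (2 existed) among those past the threshold with the same sign on each chip, and the 6 highest means, with their sense probes. Names used at least 25 shared bases and RefSeq symbols, or the scanner file's name for MIC-2. The members, lists and role groups were chosen with earlier results of these data known.

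Alternatives were normexp from the scanner signal (offset 0 and 50), scaling to the 75th percentile, the lowest 25% removed, detection on at least 5 arrays, no block, no chip term, each chip left out, trend and robust eBayes, brightness as covariate, litter means and each pig left out. On simulated data for this comparison with 60305 probes, 70 of 100 probes changed by 1 on the log2 scale and 97 of 100 changed by 2 were recovered, and 9 unchanged probes were called. The simulated errors were independent, with no litter correlation and no shared array brightness. The recovery therefore does not cover the change of the real calls when brightness was a covariate.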

Additional observations from a re-analysis of the deposited data

Results flagged for a closer look

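Among 39 named antisense and sense probes, the value of 1 DD pig stood far from the others in 1. In antisens_OTTSUST00000000574, DD pig 21 had a log2 value of 5.12 and the next DD pig 3.91, a gap of 0.683 of the range of the 10 pigs, past Dixon's 95% critical value. Chance alone gives such a gap in about 5% of groups, and no DD array had this probe well above background. Groups of 11 LW pigs were not examined in this way.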

How the results depend on the processing

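No paired analysis was possible because the animal numbers of the breeds are not shared. The number of antisense probes called higher in DD pigs (34) became 112 with scaling to the 75th percentile, 53 among probes detected on at least 5 arrays (165 of the 358), 15 without the litter block, 5 without the chip term, 4 without chip 2, 0 without chip 3 and 0 with brightness as covariate. It ranged from 10 to 56 with each pig left out. The number called lower (2) became 4 with the lowest quartile removed, 4 with trend and robust eBayes, 1 without chip 1, 1 without chip 2, 0 without chip 3 and 1 with brightness as covariate, and ranged from 2 to 4 with each pig left out. The probes called over the whole array (6805) became 17212 with 75th percentile scaling, 10676 with the detection filter, 3779 without the block, 2064 without the chip term, 2503 without chip 2, 459 without chip 3 and 837 with brightness, and ranged from 2967 to 11013 with each pig left out. Scaling to the 75th percentile moved the median of all probes from -0.03 to 0.24 and the share of called probes that were higher from 50.2% to 82.0%. The median log2 FC of the antisense probes was then 0.49, which is 0.25 above that of all probes, and it was 0.17 with the detection filter. The number of pairs with an exact p under 0.05 (62) was 33 without chip 3, 22 with brightness as a term (chosen after seeing the data) and ranged from 38 to 83 with each pig left out. The cause of these shifts was not tested.

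Signs turned in some of the named probes. With brightness as covariate the log2 FC was -0.0045 in antisens_OTTSUST00000000530, -0.019 in antisens_OTTSUST00000001009, -0.00090 in antisens_OTTSUST00000000673 and -0.022 in antisens_OTTSUST00000000684. In antisens_OTTSUST00000000459 it was -0.051 without chip 2 and -0.030 to 0.13 with each pig left out, and in antisens_OTTSUST00000000550 it was -0.25 to 0.14 with each pig left out. The antisense minus sense difference of antisens_OTTSUST00000001125 was 0.089 with an offset of 50, 0.088 without the chip term, 0.39 without chip 3 and -0.25 to 0.18 with each pig left out. With brightness as a term it was -0.48 in antisens_OTTSUST00000001462, -0.50 in antisens_OTTSUST00000000529, -0.58 in antisens_OTTSUST00000000530, -0.54 in antisens_OTTSUST00000001463, -0.40 in antisens_OTTSUST00000000582, -0.12 in antisens_OTTSUST00000001104, -0.33 in antisens_OTTSUST00000000684 and -0.014 in antisens_OTTSUST00000000516. That of antisens_OTTSUST00000001104 was -0.016 with 75th percentile scaling, and that of antisens_OTTSUST00000000901 was -0.0054 to 0.24 with each pig left out. Dim probes limit what can be read, since 86 antisense probes were never well above background.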
